A study of Caenorhabditis elegans with 7 samples.

Results

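The 10 genes described here encode cuticle collagens of the nematode Caenorhabditis elegans whose loss gives short, stout ("dumpy") or bent worms: dpy-2, dpy-3, dpy-5, dpy-7, dpy-8, dpy-9, dpy-10, dpy-13, dpy-17 and sqt-3. They were chosen by name, 10 of 44968 annotated features, with their levels in these same libraries already known, so their levels and their differences between the groups are given as a description without a test of their own. The authors' comparison table names 8 of them, and dpy-9 (T21D12.2) and dpy-13 (F30B5.1) were matched through Ensembl. All 10 passed the filter on low counts, which left 14867 genes.

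Messenger RNA came from whole starved first-stage (L1) larvae of the wild-type strain N2, in 2 groups: 4 libraries, A to D, from progeny of parents under dietary restriction (DR), and 3 libraries, A to C, from progeny of parents fed ad libitum (AL). Stocks were kept at 20 °C on OP50 bacteria. The parents grew for 96 hr in liquid culture with Escherichia coli HB101, at 3.1 for DR and 25 for AL; these amounts are in mg per mL by the notes sheet, while the labels write the DR amount in another unit. The labels have the parental cultures started from embryos, and the notes from arrested larvae. Embryos freed from the parents by bleaching were held in S-basal without food for 24 hr and the larvae were frozen, so all 7 libraries are from unfed larvae.

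The worm's cuticle is an extracellular coat secreted by the epidermis, built mostly of collagens and made anew at the end of embryogenesis and at each moult. Its surface carries ring-shaped furrows with raised annuli between them, and collagen genes are switched on in waves within each moulting cycle. The collagens of dpy-2, dpy-3, dpy-7, dpy-8, dpy-9 and dpy-10 are the 6 that the furrows require. Worms that lack them switch on osmotic, detoxification and antimicrobial genes. The products of dpy-5 and dpy-13 lie in the annuli. DPY-17 is needed for the secretion of SQT-3, whose carboxyl end is trimmed by the protease DPY-31.

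Libraries held 16626117 to 20874237 counts in annotated features in DR progeny and 16805120 to 22952310 in AL progeny. A count of 0 allowed up to 0.131 to 0.180 CPM (3 counts of a library's total, counting error only). Levels below are normalised CPM, counts scaled to the library's total over tested genes and its TMM factor. DR D stood apart in ribosomal RNA, which took 22.5% of its counts. The share was at most 12.2% in the remaining DR libraries, and lay between 7.54% and 11.8% in AL progeny. DR B, AL B and AL C stood apart in the collagens themselves. The summed level of the 10 genes was 17.1, 126.0, 22.95 and 32.2 CPM in DR A to D, against 26.5, 121.5 and 65.5 CPM in AL A to C. High and low libraries thus occurred in both groups. The labels call the libraries biological replicates without saying whether they came from separate cultures, so the errors measure the spread between these libraries. In whole larvae a smaller epidermal share of the RNA and less collagen RNA within the epidermis cannot be told apart.

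Among the furrow collagens dpy-7 and dpy-3 had the widest ratios between libraries. dpy-7 is a collagen gene whose protein marks the furrows and whose promoter is widely used to drive expression in the epidermis. It had 0.532, 7.36, 0.365 and 0.511 CPM in DR A to D, against 0.519, 5.90 and 2.02 CPM in AL A to C. DR B and AL B were the highest, AL C was in between, and the remaining 4 libraries lay close together. DR B held 163 counts and DR C 7, a ratio of 20.2 (95% interval 9.56 to 50.9, exact, counting error only).

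The level of dpy-3 was 0.387, 5.46, 0.470 and 0.256 CPM in DR A to D, against 0.519, 2.78 and 1.92 CPM in AL A to C. Its highest library, DR B, exceeded its lowest, DR D, 21.4-fold (counting interval 8.14 to 79.7). Its profile was closer to that of dpy-7 than any other 2 members were to each other, with a root mean square difference of 0.43 log2 units between the centred log2 CPM over the 7 libraries. Both genes rank DR B first and AL B second.

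The genes dpy-2 and dpy-10 are neighbours: in the Ensembl annotation dpy-2 is one of the 2 coding genes nearest to dpy-10. There dpy-10 also overlaps T14B4.19 on the same strand, a gene that the deposited counts do not list. The level of dpy-10 was 1.26, 6.91, 2.14 and 2.49 CPM in DR A to D, against 1.43, 8.27 and 2.98 CPM in AL A to C. That of dpy-2 was 2.13, 8.35, 2.82 and 4.79 CPM in DR A to D, against 2.55, 5.08 and 3.84 CPM in AL A to C. The pair shared its highest libraries, DR B and AL B, and its lowest, DR A and AL A, and differed by 0.50 log2 units (root mean square). The highest library of dpy-10 exceeded its lowest 6.57-fold, and that of dpy-2 3.92-fold. Unlike dpy-3, dpy-7 and dpy-10, dpy-2 had a higher level in DR D than in AL C.

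The remaining furrow collagens did not have this profile. The level of dpy-8 was 5.71, 2.75, 3.86 and 4.79 CPM in DR A to D, against 4.32, 3.07 and 3.98 CPM in AL A to C. The lowest libraries of dpy-8 were DR B and AL B, where dpy-7 was highest, so the ratio of dpy-7 to dpy-8 CPM was 2.67 in DR B and between 0.0932 and 0.107 in DR A, C and D, against 1.92 in AL B, 0.506 in AL C and 0.120 in AL A. In the Ensembl annotation dpy-8 overlaps C31H2.14 on the opposite strand, a gene that the deposited counts do not list. The libraries kept no strand, so reads of the 2 cannot be told apart there. The level of dpy-9 was 0.242, 0.587, 0.313 and 0.192 CPM in DR A to D, against 0.605, 0.236 and 0.768 CPM in AL A to C. It had 3 to 16 counts per library, and its widest ratio, AL C over DR D, was 4.01 with a counting interval of 1.15 to 21.5.

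**Figure D1:**
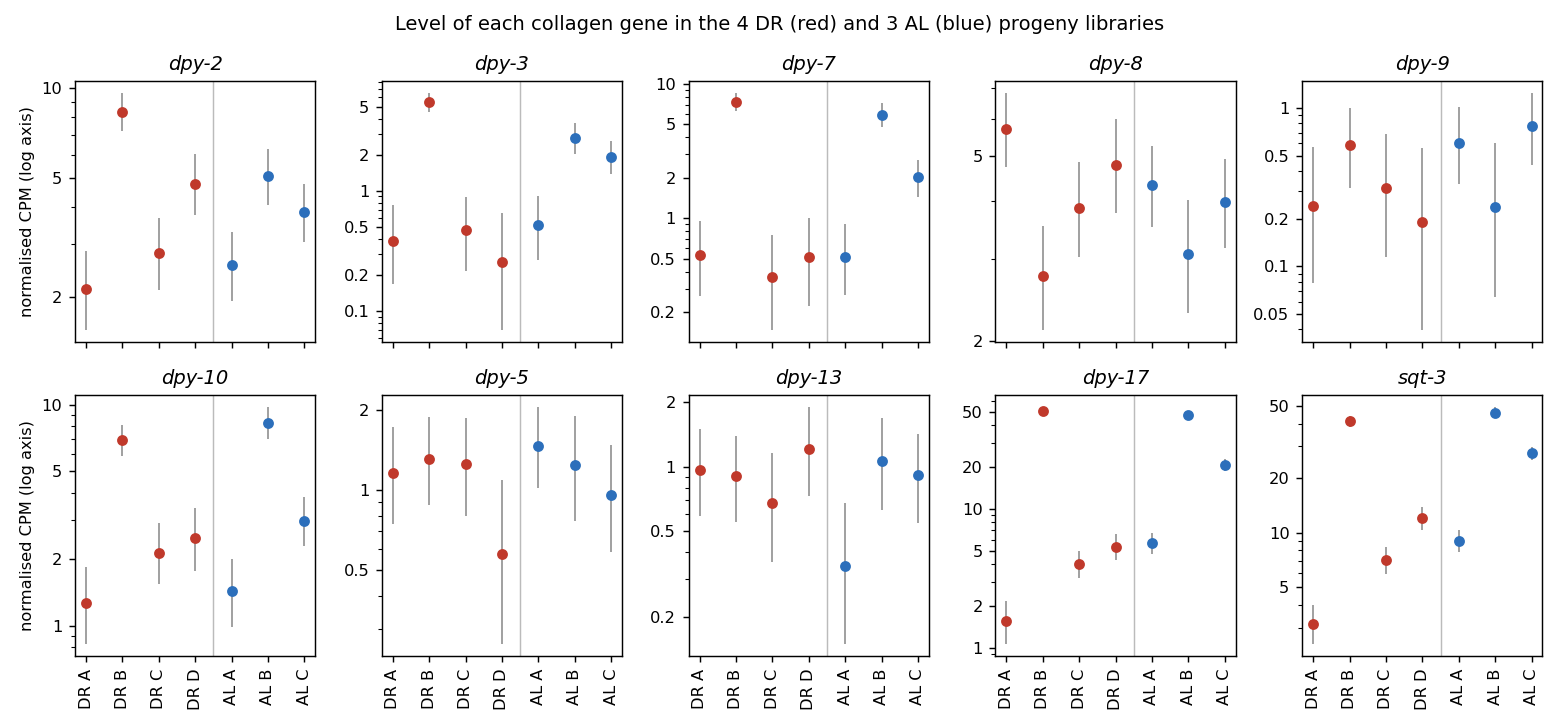
Normalised CPM (log axis, a different range in each panel) of the 10 collagen genes in each DR (red, left) and AL (blue, right) progeny library, with exact 95% Poisson intervals of the counts as bars. dpy-3, dpy-7, dpy-10, dpy-17 and sqt-3 are highest in DR B, AL B and AL C, while dpy-8 is lowest in DR B and AL B.

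The partners dpy-17 and sqt-3 had the highest means of the 10 over the 7 libraries, although in DR A dpy-8 exceeded both and dpy-2 exceeded dpy-17. The level of dpy-17 was 1.55, 51.2, 4.02 and 5.37 CPM in DR A to D, against 5.71, 47.8 and 20.7 CPM in AL A to C. DR B and AL B were again at the top with AL C next, and DR A was lowest, 33.0-fold below DR B (counting interval 23.3 to 48.5). The level of sqt-3 was 3.15, 41.2, 7.04 and 12.0 CPM in DR A to D, against 9.04, 46.1 and 27.4 CPM in AL A to C. Its highest library, AL B, exceeded its lowest, DR A, 14.6-fold.

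The ratio of dpy-17 to sqt-3 CPM was 0.492, 1.24, 0.570 and 0.447 in DR A to D, against 0.632, 1.04 and 0.757 in AL A to C. It was thus highest in the libraries where both genes were highest, DR B and AL B. Together the pair made up 27.5% to 73.3% of the summed CPM of the 10 genes in DR libraries and 55.6% to 77.2% in AL libraries. In the annotation sqt-3 overlaps F23H12.13, an ncRNA gene of the other strand that had 0 to 4 counts per library.

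The annulus collagens dpy-5 and dpy-13 were low and flatter. The level of dpy-5 was 1.16, 1.31, 1.25 and 0.575 CPM in DR A to D, against 1.47, 1.24 and 0.960 CPM in AL A to C, and DR D was the lowest library. The level of dpy-13 was 0.968, 0.903, 0.678 and 1.21 CPM in DR A to D, against 0.346, 1.06 and 0.912 CPM in AL A to C, with AL A lowest. Their highest and lowest libraries differed 2.56-fold (counting interval 1.20 to 6.06) and 3.51-fold (1.47 to 9.27).

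**Figure D2:**
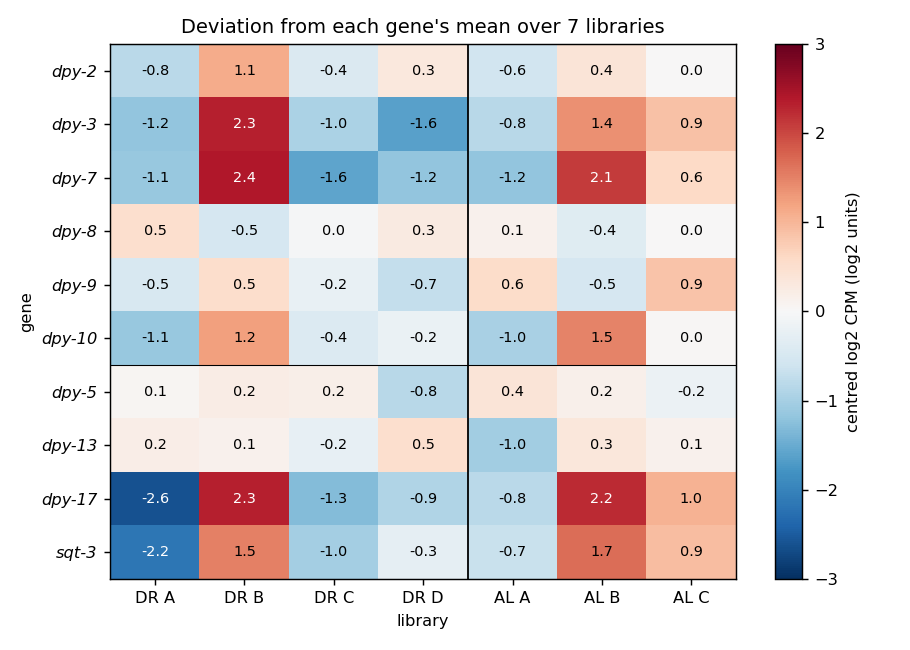
Centred log2 CPM (deviation from the gene's own mean over 7 libraries, log2 units) of the 10 collagen genes, furrow collagens above the line, with DR libraries left of AL libraries. DR B and AL B are red and DR A is blue for dpy-2, dpy-3, dpy-7, dpy-10, dpy-17 and sqt-3, and dpy-8 shows the opposite signs.

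Per kilobase of annotated exon, the mean level over the 7 libraries was 17.5 CPM for dpy-17 and 14.7 CPM for sqt-3, followed by dpy-2 (3.19), dpy-8 (2.69), dpy-10 (2.28), dpy-7 (2.14), dpy-3 (1.75), dpy-5 (1.33), dpy-13 (0.879) and dpy-9 (0.401). Most neighbours in this order differed by less than the SD over the libraries of one or both genes. The exceptions were dpy-5 above dpy-13 and dpy-13 above dpy-9, each pair in that order in 6 of 7 libraries. The order of the 2 most abundant genes was not stable, since dpy-17 exceeded sqt-3 per kilobase in 2 of 7 libraries. sqt-3 exceeded dpy-2 per kilobase in 7 of 7 libraries, although the difference of the means was below the SD of sqt-3. The median of the 10 genes was 2.21 CPM per kilobase, against 3.19 over 101 tested col genes, the main family of cuticle collagens, and 8.41 over all tested genes with a known length.

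Setting DR against AL progeny addresses whether the diet of the parents shows in collagen transcripts of their unfed offspring. None of the 10 genes passed the edgeR quasi-likelihood test (Benjamini-Hochberg adjusted p between 0.657 and 0.997), where 0.0135% of all tested genes passed. None had an unadjusted p under 0.05, against 10.7% of all tested genes, and DESeq2, limma-voom and the edgeR exact test also called none, with none at an unadjusted p under 0.05. For none of the 10 were the DR and AL libraries free of overlap, against 11.8% of all tested genes. Fitted log2 fold changes (DR over AL) were below 0 for 7 genes and above 0 for 3, with a median of -0.23, against a median of 0.01 and 48.4% below 0 over all tested genes. Since results of this contrast were known when the genes were chosen, nothing is read from these counts.

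Among the furrow collagens the log2 fold change was 0.26 ± 0.48 for dpy-2, -0.02 ± 1.24 for dpy-3, -0.29 ± 1.37 for dpy-7, 0.17 ± 0.25 for dpy-8, -0.67 ± 0.53 for dpy-9 and -0.37 ± 0.80 for dpy-10 (fitted value ± SE). It was -0.17 ± 0.34 for dpy-5, 0.30 ± 0.41 for dpy-13, -0.64 ± 1.37 for dpy-17 and -0.77 ± 1.01 for sqt-3. The standard error exceeded the fitted value for all but dpy-9, and for dpy-3, dpy-7, dpy-17 and sqt-3 it was above 1 log2 unit. The means behind these values were 15.5 ± 23.8 CPM for dpy-17 in DR progeny and 24.7 ± 21.3 CPM in AL progeny (SD, n = 4 and 3), and for sqt-3 15.8 ± 17.3 CPM in DR and 27.5 ± 18.5 CPM in AL progeny. For dpy-7 they were 2.19 ± 3.45 CPM in DR and 2.81 ± 2.78 CPM in AL progeny. In the authors' deposited table, which holds 8 of the 10 genes, log2 fold changes ran from -0.79 for sqt-3 to 0.25 for dpy-2 and the adjusted p from 0.750 to 1.

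For dpy-2, dpy-3, dpy-7, dpy-10 and dpy-17 the sign of the fold change depended on single libraries, while that of sqt-3 stayed below 0 with any 1 library left out. The sign also changed for dpy-5 (0.02 without DR D), dpy-8 (-0.008 without DR A) and dpy-13 (-0.07 without AL A). Without DR B the log2 fold change was -2.17 for dpy-3, -2.54 for dpy-7, -1.09 for dpy-10, -2.78 for dpy-17, -1.91 for sqt-3 and -0.24 for dpy-2. Without AL B it was 0.48 for dpy-3, 0.83 for dpy-7, 0.56 for dpy-10, 0.26 for dpy-17, -0.19 for sqt-3 and 0.51 for dpy-2. The median of the 10 genes was -1.09 without DR B and 0.37 without AL B. The file names carry 2 prefixes, 1 shared by DR A, B and C with AL A and the other by DR D with AL B and C, and the labels do not say what they stand for. Within the first the median was 1.101 and within the second -1.27. In the second, which holds DR D alone from the DR group, assumed to vary like the AL libraries, 1 member passed the edgeR test, dpy-3 (log2 fold change -3.15, adjusted p = 0.0291), in a fit where 616 of 15089 genes, 4.08%, passed. Each value within a prefix rests on a single library of 1 group.

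**Figure D3:**
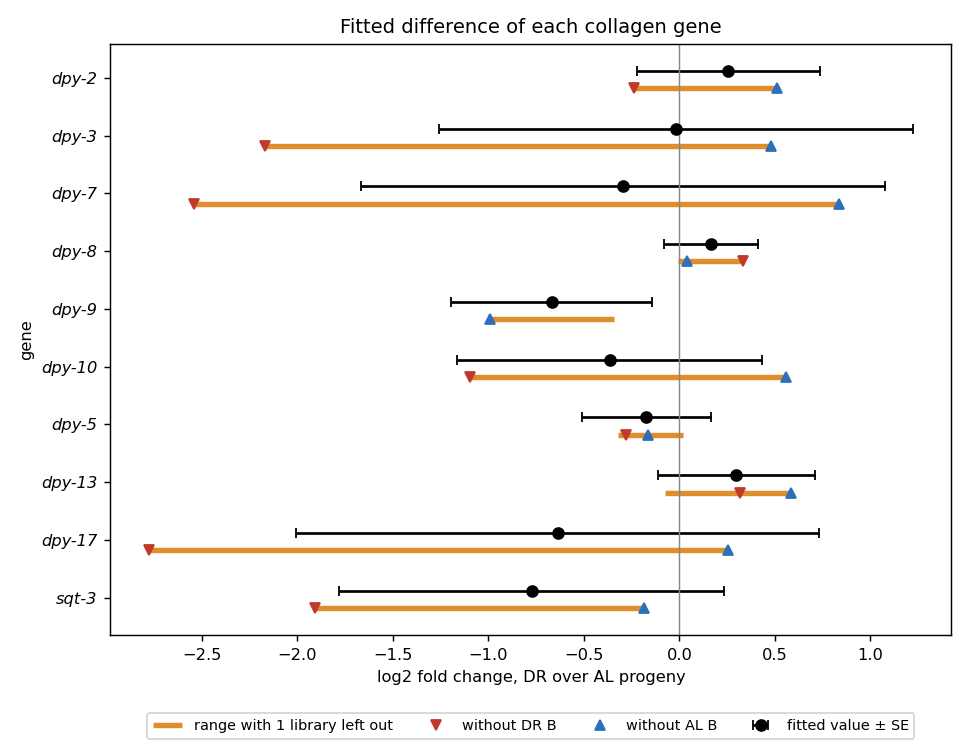
Fitted log2 fold change of each collagen gene, DR over AL progeny, with its SE (black), and the range when any 1 library is left out (orange), with the values without DR B (red) and without AL B (blue). For dpy-2, dpy-3, dpy-7, dpy-10 and dpy-17 the red and blue marks lie on opposite sides of 0.

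The 10 genes differed widely in their spread within the groups. The biological coefficient of variation, the spread between libraries of a group beyond counting error as edgeR estimates it, was 1.16 for dpy-7, 1.16 for dpy-17, 1.06 for dpy-3, 0.872 for sqt-3, 0.691 for dpy-10 and 0.425 for dpy-2. It was 0.344 for dpy-9, 0.308 for dpy-13, 0.264 for dpy-5 and 0.235 for dpy-8, against a median of 0.146 over all tested genes. Genes of low level vary more, so each was also set beside the genes within a factor of 2 of its mean level. There dpy-17 stood at percentile 99.9, sqt-3 at 99.8, dpy-7 at 99.4, dpy-3 at 99.0, dpy-10 at 97.7 and dpy-2 at 96.2. For dpy-8, dpy-9, dpy-13 and dpy-5 the percentiles were 76.9, 65.2, 62.1 and 41.2.

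**Figure D4:**
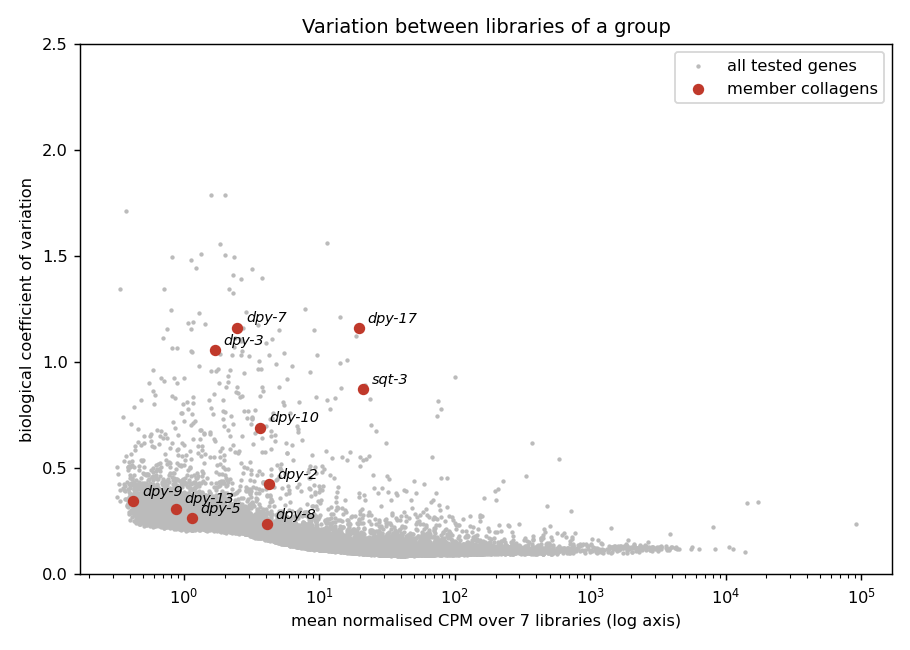
Biological coefficient of variation against mean normalised CPM over the 7 libraries (log axis) for all 14867 tested genes (grey) and the 10 collagen genes (red). dpy-7, dpy-17, dpy-3 and sqt-3 lie between 0.872 and 1.16, and dpy-8 at 0.235.

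The genes outside the cuticle collagens whose centred log2 profile lay closest to the mean profile of the 10 members were rocf-1, noah-1, bus-5, H03E18.1, pqn-32, abu-13, F58E6.13, idpa-3, idpp-11 and mlt-9, with root mean square differences of 0.19 to 0.33 log2 units over 7 libraries, against a median of 0.77 over all tested genes. The members themselves, each set against the mean of the others, had a median of 0.84, so closeness to the mean profile is not closeness to each member. The apical matrix protein gene noah-1 had 4.36, 18.2, 5.32 and 8.18 CPM in DR A to D, against 6.79, 22.9 and 12.8 CPM in AL A to C. bus-5, a gene of surface coat sugars, had 2.98 CPM in DR B and between 0.991 and 1.47 CPM in DR A, C and D, against 2.48 and 2.74 CPM in AL B and C and 1.30 CPM in AL A. mlt-9, a moulting gene, had 4.74 CPM in DR B and between 1.04 and 1.41 CPM in DR A, C and D, against 3.19 and 3.65 CPM in AL B and C and 0.821 CPM in AL A. These genes were selected for their likeness, so the shared order of the libraries is not a finding about them.

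Among the other cuticle collagens the closest profiles were those of col-14, col-48, col-44, col-77 and col-145, at 0.46 to 0.55 log2 units. In closeness among all tested genes outside the members, col-14 ranked 97 and col-145 ranked 315. The cuticle collagen gene dpy-14, which also gives dumpy worms when mutated, had a coefficient of variation of 1.21, above that of any of the 10. Its level was 0.436, 32.7, 3.96 and 3.71 CPM in DR A to D, against 4.80, 41.1 and 12.3 CPM in AL A to C. The 3 highest libraries were DR B, AL B and AL C for 5 of the 10 members (dpy-3, dpy-7, dpy-10, dpy-17 and sqt-3), and for 20 of 101 tested col genes, against 5% of all tested genes. These 3 libraries are those with the highest summed level of the 10 members, so nothing is read from the count for the members. Of the 101 col genes 54 had a log2 fold change above 0 and 47 below, with a median of 0.02 and none past the edgeR test. The extremes were col-141 at 1.00 and col-113 at -1.11. Of 10 other named cuticle collagens in the files, 4 were tested (3 above 0, 1 below, none past the test), from dpy-14 at -0.89 to dpy-4 at 0.71. The blister collagen bli-1 had 1.24 ± 0.53 CPM in DR and 1.12 ± 0.28 CPM in AL progeny (SD, n = 4 and 3). The collagens sqt-1 and rol-6, whose mutations make worms roll, had 4 and 33 counts in total and did not pass the filter.

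Genes that fold, trim and cross-link collagens did not swing with the mean profile of the 10 collagens. The mean centred log2 CPM of 13 tested genes stayed between -0.14 and 0.08 in DR libraries and between -0.03 and 0.01 in AL libraries, whereas that of the 10 collagens ran from -0.88 to 1.13 in DR and from -0.50 to 0.89 in AL libraries. The protease gene dpy-31, whose product trims SQT-3, had 45.3 ± 4.36 CPM in DR and 44.4 ± 0.33 CPM in AL progeny. The furin-like protease gene bli-4 had 119 ± 19.3 CPM in DR and 122 ± 7.04 CPM in AL progeny. The prolyl 4-hydroxylase subunit genes dpy-18 and phy-2, whose products stabilise the collagen helix, had 23.7 ± 2.98 and 17.3 ± 5.31 CPM in DR progeny, against 21.8 ± 3.78 and 14.7 ± 2.72 CPM in AL progeny. Of the 13 genes 6 had a log2 fold change above 0 and 7 below, with a median of -0.03 and none past the edgeR test. An unadjusted p under 0.05 was found for 3 of the 13, against 10.7% of all tested genes. DR and AL libraries were free of overlap for 2 of the 13, against 11.8% of all tested genes. The extremes were the tetraspanin gene tsp-15 at 0.30 and the peroxidase gene mlt-7 at -0.30, both of cuticle cross-linking.

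Epidermal transcription factors varied less between libraries of a group than the 10 collagens, with a median coefficient of variation of 0.115, against 0.558. These sets were not matched for level, and genes of low level vary more. The nuclear receptor gene nhr-23, whose product drives moulting genes, had 10.8, 13.4, 10.7 and 10.99 CPM in DR A to D, against 12.06, 15.5 and 9.41 CPM in AL A to C. The nuclear receptor gene nhr-25 had 57.0 ± 6.41 CPM in DR and 60.1 ± 6.79 CPM in AL progeny, the GATA factor gene elt-3 82.8 ± 8.21 CPM in DR and 82.6 ± 4.57 CPM in AL progeny, and blmp-1, a zinc finger factor of larval timing, 26.5 ± 3.58 CPM in DR and 28.7 ± 4.90 CPM in AL progeny. In DR B and AL B the mean of the 11 factors lay 0.13 and 0.12 log2 units above its average over the libraries, and in the other libraries between -0.16 and 0.01. For 3 of the 11 the highest libraries were DR B, AL B and AL C, against 5% of all tested genes. The level of grh-1 ran from 22.7 CPM in DR D to 40.4 CPM in DR B. Of the 11 genes 2 had a log2 fold change above 0 and 9 below, with a median of -0.08 and none past the edgeR test. An unadjusted p under 0.05 was found for 1 of the 11, against 10.7% of all tested genes. The extremes were myrf-1 at 0.30 and grh-1 at -0.32.

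**Figure D5:**
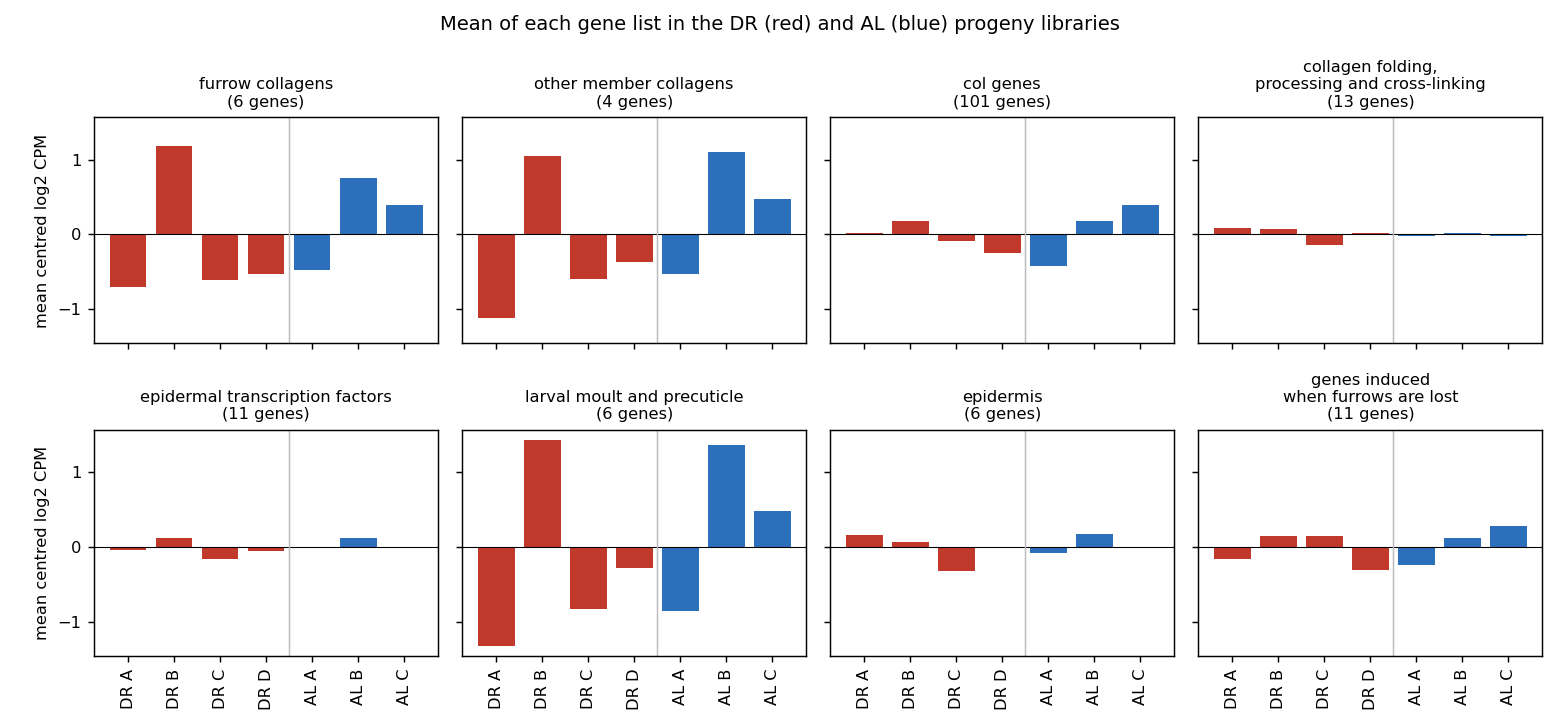
Mean centred log2 CPM of 8 gene lists in each DR (red, left) and AL (blue, right) progeny library, with the number of tested genes in each title. The means of the furrow collagens, the other member collagens and the moult and precuticle genes are high in DR B, AL B and AL C. The mean of the col genes is also highest there, at 0.17 in DR B, 0.18 in AL B and 0.39 in AL C. Single genes such as dpy-8 depart from the mean of their list. The lists of collagen processing genes and epidermal transcription factors stay between -0.16 and 0.13.

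The moult and precuticle list was highest in the libraries where the summed level of the 10 collagens was highest. Not every member had that profile, since dpy-8 was lowest in DR B and AL B. The summed level of the moult and precuticle list was 16.9, 58.2, 18.8 and 26.2 CPM in DR A to D, against 19.3, 64.6 and 31.8 CPM in AL A to C. This list was chosen with earlier results of these data known and holds noah-1, one of the closest profiles above. The count that follows is therefore description only. The 3 highest libraries were DR B, AL B and AL C for 5 of the 6 genes of this list, against 5% of all tested genes. The exception, the moulting gene mlt-10, was lowest in AL C and AL B and had a log2 fold change of 0.58, while lpr-3, a lipocalin of the precuticle, stood at -1.33; none passed the edgeR test (1 with an unadjusted p under 0.05), and the list median was -0.62. Epidermis markers did not move with it: their summed level was 992 to 1416 CPM in DR and 1206 to 1400 CPM in AL libraries (log2 fold changes from -0.17 for vab-10 to 0.12 for pat-12), and all 6 of 6 were tested. Summed oocyte and early embryo markers were 12.8, 17.6, 41.5 and 17.1 CPM in DR A to D, against 16.2, 20.0 and 20.5 CPM in AL A to C, so that their highest library, DR C, was low in the collagens. In this list the log2 fold change was 1.11 for perm-2, which was high in DR C alone (7.20 CPM), and -0.23 for oma-2. Summed adult cuticle markers lay at 5.88 to 7.04 CPM in DR and 4.43 to 7.01 CPM in AL libraries, with col-62 at 0.24 and col-19 at -0.23. Markers of body wall muscle (unc-15 at -0.12, myo-3 at -0.30), intestine (elt-2 at 0.16, ifb-2 at -0.29) and neurons (snb-1 at 0.06, unc-104 at -0.10) had summed levels in DR B within the range of the other 6 libraries or, for neurons, below it (437 CPM in DR B, against 454 to 499.5 CPM in DR A, C and D and 459 to 471 CPM in AL progeny). The summed muscle markers lay at 5966 to 8322 CPM in DR and 8406 to 8714 CPM in AL libraries. The summed intestine markers lay at 1245 to 1487 CPM in DR and 1679 to 1711 CPM in AL libraries. In both sums every DR library was below every AL library. The intestine sum was mostly ifb-2, at 1158 to 1416 CPM in DR and 1609 to 1646 CPM in AL libraries. With its genes weighted equally (mean centred log2 CPM) the intestine list overlapped, at -0.16 to 0.10 in DR and -0.07 to 0.20 in AL libraries. The muscle list did not, at -0.36 to 0.02 in DR and 0.08 to 0.18 in AL libraries. Of single genes, 1 of 3 muscle and 1 of 3 intestine genes did not overlap, against 11.8% of all tested genes. None of these markers was at 0 in all libraries and none passed the edgeR test, while 1 muscle gene and 1 intestine gene had an unadjusted p under 0.05. Such a p was found for 10.7% of all tested genes. The part of these markers, or of the rRNA share, in the levels of the collagens was not tested.

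Genes known to be switched on when furrow collagens are missing were set beside the low-collagen libraries. Only RNA was measured, so low collagen transcripts there do not show that furrow collagens were missing from the cuticle. The antimicrobial peptide gene nlp-29 had 57.1, 69.4, 53.8 and 38.5 CPM in DR A to D, against 45.3, 63.0 and 72.7 CPM in AL A to C. The glycerol synthesis gene gpdh-1, of the osmotic response, had 6.83, 9.71, 5.95 and 6.39 CPM in DR A to D, against 5.10, 4.25 and 10.9 CPM in AL A to C. The detoxification gene gst-4 had 5.81, 6.999, 9.76 and 6.45 CPM in DR A to D, against 5.27, 6.32 and 6.72 CPM in AL A to C. The summed level of the 6 furrow collagens was 10.3, 31.4, 9.96 and 13.03 CPM in DR A to D, against 9.94, 25.3 and 15.5 CPM in AL A to C. Of the low libraries DR C was the highest for gst-4, while DR A and AL A were the highest for none of these 3 genes. Of 11 tested genes of this kind 3 had a log2 fold change above 0 and 8 below, from nlp-31 at 0.33 to cnc-4 at -0.53, with a median of -0.14 and none past the edgeR test or at an unadjusted p under 0.05. For 6 of the 11 the highest libraries were again DR B, AL B and AL C, against 5% of all tested genes. Of 13 tested genes that relay these responses 3 were above 0 and 10 below, from osm-7 at 0.14 to the STAT-like factor gene sta-2 at -0.78, with a median of -0.18 and none past the test (4 with an unadjusted p under 0.05). For 5 of these 13 the DR and AL libraries did not overlap. Over all tested genes 10.7% had such a p and 11.8% did not overlap. The gene osm-8, with 64 counts in total, did not pass the filter. The dpy genes that act in dosage compensation or chromatin rather than in the cuticle, with their partners, had a median of -0.07 over 9 genes (2 above 0, 7 below, none past the test, 1 with an unadjusted p under 0.05), from mix-1 at 0.14 to dpy-28 at -0.32, and a median coefficient of variation of 0.101, against 0.558 for the 10 collagens. These sets were not matched for level either.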

How the data were processed

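The 7 libraries were made from poly(A) RNA with a kit that records no strand, and amplified over 12 PCR cycles, per the labels' protocols. Bowtie 1.1.2 was the aligner and HTSeq the counter, per the submitters' processing notes. The sources used here give neither the build nor the annotation release nor how reads matching several genes were treated, so reads shared between similar collagens are uncertain and no coordinates are printed. The authors deposited raw counts per feature, CPM per library, and log2 fold changes with a p-value and adjusted p-value from edgeR's exact test, for genes over 1 CPM in at least 3 libraries. HTSeq's summary lines, 22.2% to 24.0% of reads, were left out.

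From the counts, a model was fitted with edgeR 4.0.16 under R 4.3.3 (TMM, filterByExpr, robust quasi-likelihood fit, two-sided, DR over AL) with Benjamini-Hochberg adjustment over 14867 genes and a threshold of 0.05. The script was tested on simulated data in which all genes varied alike. That test does not show what difference could be found in genes as variable as some of these collagens. Symbols came from the authors' table or Ensembl release 115, exon lengths and overlaps from Ensembl, and 521 features had no match. Exact 95% intervals cover only counting error, as there were no molecular identifiers and PCR copies are not separate molecules. Centred profiles are log2 CPM with a prior count of 2. The members and lists were chosen with earlier results of these data known. Genes named are the 10 members, the 10 genes and 5 collagens with the closest profiles, 15 genes given whatever their outcome, and the extremes of each list; dpy-14, noah-1, bus-5 and mlt-9 were picked for detail with their values in view. The alternatives comprised other normalisations and filters, DESeq2 1.42.0, limma-voom (limma 3.58.1), the exact test, a fit that was not robust, the replicate letters as a block, file-name prefixes, the rRNA share as a covariate, and leaving out each library.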

Additional observations from a re-analysis of the deposited data

Results flagged for a closer look

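Within the 4 DR libraries, DR B lay far above the other 3 for dpy-3, dpy-7 and dpy-17 and for the summed CPM of the 10 collagens. The gap from DR B to the next library took up 0.959 of the whole range of CPM for dpy-3, 0.976 for dpy-7, 0.923 for dpy-17 and 0.861 for the sum. These 4 values share the same library. Dixon's 95% critical value for 4 values is exceeded by chance in about 1 group of 20 if values are normally distributed. CPM were used for this, not log2 CPM. Each of the 10 genes, their sum, their mean centred log2 CPM and the rRNA share were examined. The mean centred log2 CPM (-0.88, 1.13, -0.60 and -0.46 in DR A to D) did not exceed the critical value. The rRNA share also stood out in DR libraries, with DR D apart by 0.9 of the range. The groups of 3 AL libraries were not examined in this way.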

How the results depend on the processing

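Members past the threshold stayed at 0 under every alternative except within the second file-name prefix, where 1 passed. The median log2 fold change of the 10 collagens, -0.23, was 1.101 within the first prefix and -1.27 within the second, and ran from -1.09 to 0.37 with 1 library left out. Among the other alternatives it stayed between -0.41 (limma-voom) and -0.05 (rRNA share as a covariate). Over all genes, 2 were higher in DR progeny and 0 lower. These counts were 1 and 0 with library size only, 27 and 50 with no filter on low counts, 16 and 25 by DESeq2, 10 and 14 by the edgeR exact test, 0 and 0 by limma-voom, without robust estimation, with the rRNA share as a covariate and within the first prefix, and 191 and 425 within the second, which has DR D alone from the DR group. With 1 library left out, 0 to 2 genes were higher and 0 lower. With the replicate letters as a block 2 genes were higher and 2 lower, and the median of the collagens was -0.28; the letters were not taken to pair libraries, since deviations of same-lettered libraries correlated at 0.20 for A, 0.27 for B and -0.10 for C. dpy-9 had no value without DR B, where it missed the filter on low counts. The lowest counts were those of dpy-9, 3 to 16 per library, and dpy-13, 8 to 20, and the size of difference that these could show was not computed.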
